A study of Mus musculus with 60 samples.

Results

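Mammary fat pads that held no epithelium, taken from ovariectomized mice given estrogen and progesterone, were compared with intact mammary glands of ovariectomized mice given only the oil. The fat pads came from 3 animals that received daily intraperitoneal doses, over 4 days, of 2 µg of 17-beta-estrogen and 1 mg of progesterone (E+P CFP). The glands came from 4 animals injected on the same days with 100 µl of sesame oil (V). These 7 animals were chosen by their titles out of 20 in the series, and each was read on 3 Affymetrix array types (the MG-U74 set, types A, B and C), so that 21 of 60 arrays and every probe set that is not a control entered the comparison. All 20 animals lack ovaries and therefore the ovary's own estrogen and progesterone, and lymph nodes had been taken out of the glands at collection. Intact glands from 5 animals given both hormones at the same doses (E+P) are given beside the main comparison where their values bear on it. Intact glands of 4 animals given 2 µg of estrogen alone (E) and of 4 given 1 mg of progesterone alone (P), also over 4 days, complete the series. They enter the shared estimate of the spread and are quoted for a few values. The design text counts 20 animals, which the 5 group sizes reach if the E+P CFP and E+P animals are separate; the labels do not say so for each animal, and p-values between these groups assume it. The labels state neither strain nor age nor how the fat pads were freed of epithelium. The description field of the V and E+P CFP samples names progesterone alone, but their titles and the design text give the treatments above, and the groups follow the titles.

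The mouse mammary gland is a branched epithelium of inner luminal cells, which make milk, and outer basal or myoepithelial cells, which contract, set in a pad of white fat with fibroblasts, vessels, nerves and immune cells. A fat pad emptied of epithelium keeps the stroma but has no ducts. Estrogen and progesterone act through receptors in luminal cells, which pass the signal on to their neighbours by secreted factors, and estrogen also acts through its receptor in stromal and fat cells. Luminal cells are known by keratins 8, 18 and 19, basal cells by keratins 5 and 14, and fat cells by adiponectin, leptin and the enzymes that build and store fat. The comparison described here joins a difference in hormones to a difference in tissue: with no fat pad of an oil-treated animal among the samples, the effect of the hormones on the stroma and the effect of the missing epithelium cannot be told apart. In bulk tissue, fewer cells of a type and less RNA per cell cannot be told apart either.

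Array signals below are deposited intensities brought to a common trimmed mean per array type, so 1 unit is the same for all animals of a probe set but not between probe sets. Differences are log2 values of E+P CFP minus V, taken after values under a floor (13.6, 28.6 and 19.8 on types A, B and C) were set to it, and errors are standard errors from limma. Adjusted p-values run over all 23067 probe sets tested, with a threshold of 0.05, and "rose" or "fell" is used only past that threshold. Of those probe sets, 713 (3.09%) passed it: 158 (0.685%) were higher and 555 (2.41%) lower in the fat pads. Taken as 1 probe set per gene, 503 of 12234 genes (4.11%) passed, of which 101 (0.826%) rose and 402 (3.29%) fell, and the median difference over all genes was -0.01. The labels call the animals of a group biologic replicates and say no more of how they differ.

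Some animals stood apart and are named here before the results that touch them. Gland V 4 had lymphocyte and plasma cell markers far above those of its group, with a score (the mean log2 deviation of the list's members from their mean over all animals) of 1.39, against -1.47 to -1.35 in V 1 to V 3. The fat pads lay at 0.05 to 0.80. Glycam1, a mucin of lymph node vessels, had signals of 783, 1357 and 1040 in the fat pads, against 9.8, 3.3 and 3.8 in V 1 to V 3 and 1761 in V 4. Fat pad E+P CFP 1 had the highest Gapdh ratio (signal of the control probe set at the 3' end over that at the 5' end, which rises as RNA degrades), at 4.23, and V 4 followed at 3.42. This ratio averaged 2.5 ± 1.55 (SD, n = 3) in E+P CFP and 2.41 ± 0.679 (SD, n = 4) in V, and a two-sided exact permutation test over the animals gave p = 0.914. Without V 4 and E+P CFP 1 together, 42 probe sets were higher and 351 lower.

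Skeletal muscle markers were high in every fat pad. Their summed signal was 8859 to 14170 in E+P CFP and 2238 to 4307 in V, and their score was 1.42 to 1.98 in E+P CFP and -0.66 to 0.32 in V. Among the other glands of the series the gland E 1 of the estrogen group reached a score of 1.34. With the muscle score as a term in the model, 8 probe sets were higher and 172 lower, and 4 of the 158 higher and 171 of the 555 lower probe sets kept their call. Because the score separates the groups, this model also takes up part of the group difference itself.

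**Figure D1:**
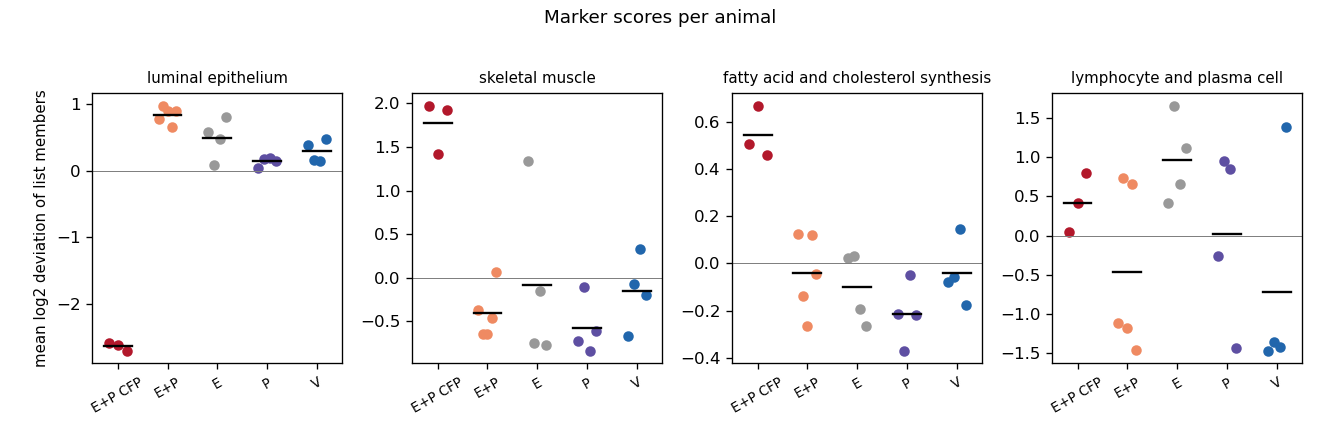
Marker scores per animal, as the mean log2 deviation of list members from their mean over all 20 animals (vertical axis), for luminal epithelium, skeletal muscle, fatty acid and cholesterol synthesis, and lymphocytes and plasma cells; each point is 1 animal and black lines are group means. The 3 fat pads lie lowest for luminal genes and highest for muscle (1.42 to 1.98) and lipid synthesis, while V 4 lies at 1.39 for lymphocytes.

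The absence of luminal epithelium was visible in nearly all of its markers. Of 21 luminal markers tested, 18 fell in the fat pads (85.7%, against 3.29% of all genes) and 0 rose, with a median difference of -2.68. Krt18, a keratin of luminal cells, had signals of 18.2, 19.7 and 12.3 in E+P CFP and 1330, 1115, 1214 and 1548 in V, a difference of -6.25 ± 0.19 (adjusted p = 1.22e-14). Krt8, its partner in the luminal filament, read 9.3, 8.3 and 6.9 in E+P CFP, all under the floor, and 752, 633, 737 and 810 in V, at least 53.7-fold lower in the fat pads (adjusted p = 4.96e-13). The groups were more than an order of magnitude apart for both keratins. Krt19 was likewise under the floor in every fat pad, at 3.7, 1.9 and 2.5, against 916, 675, 672 and 874 in V, at least 57.1-fold lower (adjusted p = 6e-13). Foxa1, the pioneer factor that opens chromatin for the estrogen receptor, read 2, 2.5 and 1.2 in E+P CFP and 523, 405, 517 and 619 in V, at least 37.5-fold lower (adjusted p = 1.32e-11). Epcam, the epithelial adhesion molecule, was at least 17.1-fold lower by the probe set on type A (3.1 to 6.5 in E+P CFP, 199 to 255 in V), while 1 of its 4 tested probe sets had the opposite sign. Gata3 and Elf5, the transcription factors of luminal identity and of the milk-forming lineage, were chosen after their values were seen. Gata3 differed by -4.03 ± 0.29 and Elf5 was at least 10.4-fold lower. Where some but not all fat pads lay under the floor, as for Krt18, the difference is a lower bound on the fall.

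**Figure D2:**
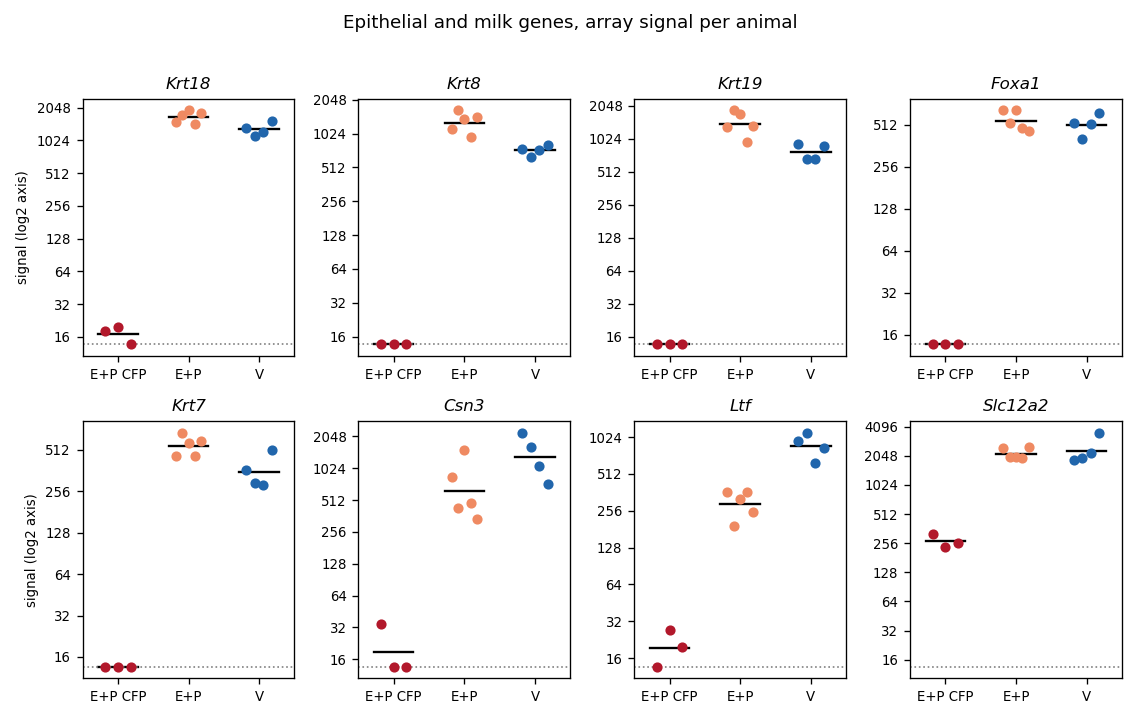
Array signal (log2 axis) of epithelial and milk genes in each animal of E+P CFP, E+P and V; points are animals, black lines are means of log2 signals, and the dotted line is the floor, at which lower values are drawn. For every gene shown the 3 fat pads lie below all glands, and Krt8, Krt19, Foxa1 and Krt7 lie at the floor in all 3.

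Secreted products and the contacts between epithelial cells followed the same direction. Of 11 milk and secreted protein genes, 7 fell (63.6%, against 3.29% of all genes) and 0 rose, with a median difference of -2.25. Csn3, kappa-casein of milk, read 34.7, 9.6 and 5.9 in E+P CFP and 2218, 1642, 1086 and 728 in V (-6.13 ± 0.48, adjusted p = 2e-08), and the intact E+P glands read 340 to 1533. Ltf, lactoferrin, which binds iron in secretions, read 8.1, 27.2 and 19.6 in E+P CFP, against 957, 1111, 632 and 827 in V, a difference of -5.48 ± 0.28 (adjusted p = 2.99e-11). Every fat pad was at least an order of magnitude below every V gland for both. Lcn2 and Wfdc2, secreted proteins of epithelia, differed by -5.05 and -4.53. Of 29 junction genes 16 fell (55.2%), with a median of -1.52. They were led by Dsp, which links desmosomes to keratin (-4.33 ± 0.24), and by St14, a membrane protease (-3.56), the claudin Cldn7 (at least 7.81-fold) and cingulin, Cgn (-2.50). Without V 4 and E+P CFP 1 together, the numbers of luminal, milk and junction genes that fell were 17, 6 and 12, and with the muscle score in the model they were 14, 5 and 6. Another probe set of Cgn had the opposite sign.

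Basal epithelium was less fully measured. Of 12 basal markers tested 3 fell (25%, against 3.29% of all genes). They were Perp, a desmosome protein (at least 7.49-fold), Sox10 (-1.20 ± 0.19, adjusted p = 0.000407) and integrin beta 4, Itgb4 (-1.23 ± 0.26, adjusted p = 0.00735). In 6 of the 12 markers every fat pad lay below every V gland, where 7.38% of all probe sets did, and in 0 above. Krt14 and Krt5, the keratins that define basal cells, did not pass the filter on dim probe sets. The Krt5 probe set stayed at 12.3 or less in all fat pads and V glands and so under the floor of its array type, and the Krt14 probe set on type A exceeded that floor only in V 1 among these animals, at 22.6. A second Krt14 probe set, on type C, read 6.9, 26.8 and 30.2 in E+P CFP and 45.5, 5.9, 81.2 and 10.5 in V, with the groups overlapping. Acta2, smooth muscle actin, and Cnn1, calponin, contractile proteins of myoepithelial cells and of vessel walls, stood at 311, 306 and 482 in E+P CFP against 1136, 772, 629 and 502 in V for Acta2, and at 6.5, 14.7 and 16.2 against 132, 102, 55 and 80.4 for Cnn1. The difference was -1.02 ± 0.23 for Acta2 (adjusted p = 0.0148) and -2.57 ± 0.30 for Cnn1 (adjusted p = 8.99e-06). Acta2 lost its call without V 1 (adjusted p = 0.0537), E+P CFP 1 (0.0974) or E+P CFP 2 (0.0872), and 1 of its 2 probe sets had the opposite sign.

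Transporters, receptors and enzymes were also among the falls. Slc12a2, the cotransporter that brings sodium, potassium and chloride into cells, read 319, 233 and 255 in E+P CFP and 1863, 1943, 2165 and 3538 in V (-3.11 ± 0.21, adjusted p = 1.37e-09). Fgfr2, the receptor through which stromal FGF10 acts on mammary epithelium, was chosen after its values were seen and read 96.1, 110 and 103 in E+P CFP and 1091, 715, 1172 and 1173 in V (-3.31). Erbb3, a receptor of neuregulins, fell by 3.05, and Irx3, a homeobox factor, by 2.44. Aldoc, an aldolase of glycolysis, lay under the floor in all fat pads (9.6 to 13) and at 128 to 212 in V, at least 11.5-fold lower (adjusted p = 1.79e-10). Among the 15 largest falls were also Fam25c, Tlcd4, Tmprss2, a membrane protease, Fxyd3, a modulator of the sodium pump, Krt7, Ly6d and Fcgbp, with differences of -5.94 to -4.45. Of these, 1 of the 4 probe sets of Tlcd4 had the opposite sign.

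The 15 largest rises were, with the exception of Agt, transcripts of skeletal muscle. Of 40 muscle markers on the arrays 27 passed the filter on dim probe sets, which 3 bright fat pads alone could meet. Of these 27, 11 rose (40.7%, against 0.826% of all genes) and 0 fell, with a median difference of 2.00. Actn3, alpha-actinin of fast fibres, read 508, 197 and 436 in E+P CFP and 13, 35.4, 21.6 and 12.8 in V (4.18 ± 0.67, adjusted p = 0.000531). Myh1, a fast myosin heavy chain, read 407, 336 and 454 in E+P CFP and 16.2, 34.6, 79 and 16.9 in V (3.75 ± 0.71, adjusted p = 0.00304). The lowest fat pad exceeded the highest V gland by several fold for both. Tnnt3, Pygm, Cox6a2, Myom2, Ryr1, Smpx, Mb, Trdn, Tnnc2 and Klhl41 rose by 2.22 to 3.79. They encode troponins, the muscle glycogen phosphorylase and other proteins of muscle. Myl1, a myosin light chain, and Eno3, the muscle enolase, rose by 2.00 and 1.43. Pgam2 and Tnni2 were under the floor in all V glands and at least 6.97-fold and 6.84-fold higher. With the muscle score in the model 0 of the 27 list members rose, and Tnnt3, Myom2 and Tnnc2 were at -0.14, -0.13 and -0.02. The score is the mean of these same 27 members, so their loss was built into that model and tells nothing about them. Tnnt3 and Tnnc2 are among the members, and Myom2 is not. Some V glands lay under the floor for Actn3, Tnnt3, Pygm, Myom2, Smpx, Trdn and Klhl41, so that their differences are lower bounds. Of the 15 only Klhl41 and Myom2 had another probe set of the opposite sign. Without E+P CFP 1 or without E+P CFP 3, 8 muscle markers rose in place of 11, and without V 4 and E+P CFP 1 together 4 did. Calls that depended on 1 animal were those of Myom2 (lost without V 1, V 4, E+P CFP 1 or E+P CFP 3, adjusted p of 0.0526 to 0.0856), Tnni2 (without E+P CFP 3, 0.0715), Mb (without E+P CFP 1, 0.142, or E+P CFP 3, 0.0631) and Tnnc2 (without E+P CFP 1, 0.0587). Pgam2 and Klhl41 passed the filter on dim probe sets only with all 3 fat pads. Without any 1 of these they were not tested, so their calls also rest on every fat pad.

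**Figure D3:**
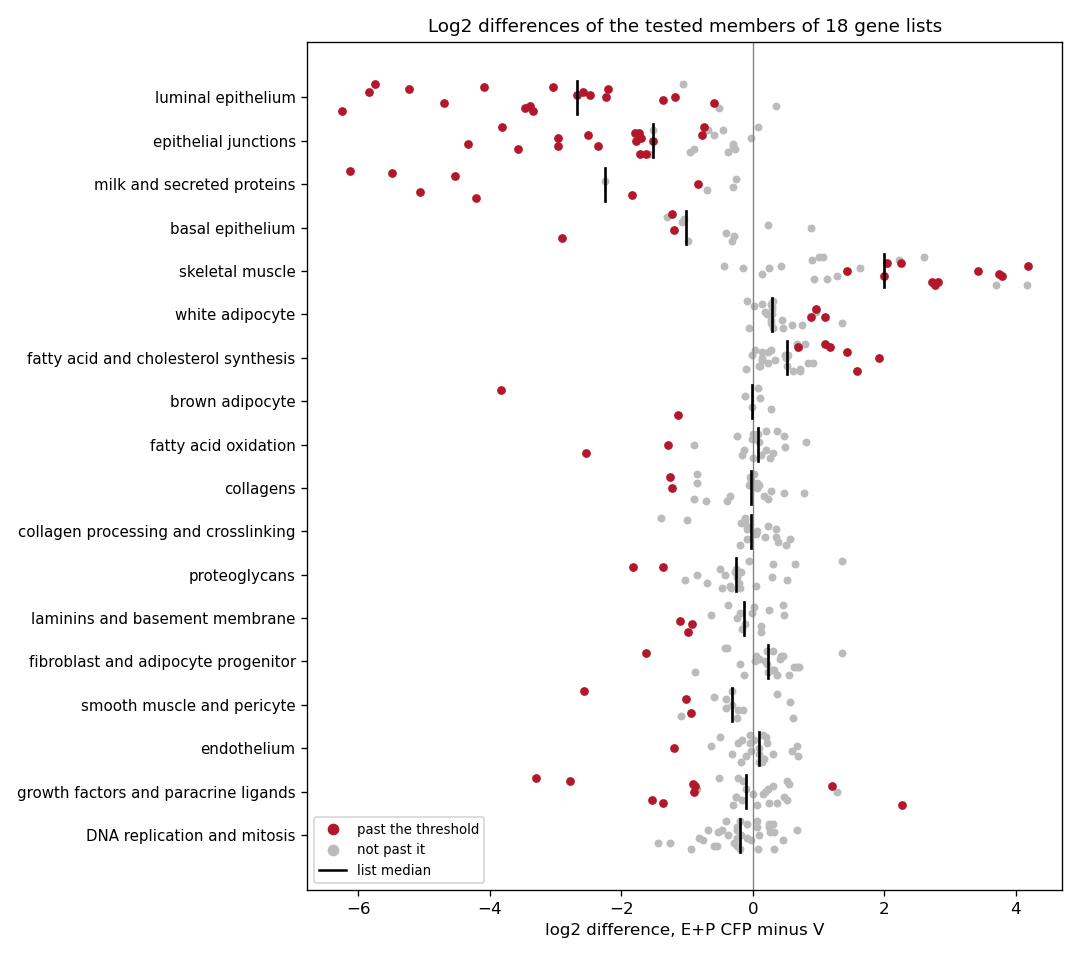
Log2 differences, E+P CFP minus V (horizontal axis), for every tested member of 18 gene lists; red points passed the adjusted threshold, grey points did not, and black bars are list medians. Luminal, junction and milk genes lie to the left (medians of -2.68, -1.52 and -2.25), muscle to the right (2.00), lipid synthesis slightly to the right (0.53), and matrix, fibroblast and endothelial lists near 0.

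Apart from muscle, the group with most rises was lipid synthesis. All 30 tested members of the fatty acid and cholesterol synthesis list are given by their counts: 6 rose (20% of the list, against 0.826% of all genes), 0 fell, and the median difference was 0.53, against -0.01 over all genes. In 12 of the 30 every fat pad lay above every V gland, which held for 5.59% of all probe sets. Against the intact E+P glands 12 of the 30 were higher in the fat pads, where 3.54% of all genes were. Mlxipl encodes ChREBP, the factor that turns on lipid synthesis in response to glucose, and it read 1104, 1054 and 1061 in E+P CFP and 561, 531, 612 and 283 in V (1.17 ± 0.25, adjusted p = 0.00792). Pnpla3, a lipase and acyltransferase of lipid droplets, read 2607, 2151 and 2738 in E+P CFP and 911, 829, 920 and 670 in V (1.59 ± 0.32, adjusted p = 0.0038). Scd2, a stearoyl-CoA desaturase, averaged 3920 ± 667 in E+P CFP (SD, n = 3) and 1836 ± 347 in V (SD, n = 4), a difference of 1.10 ± 0.19 (adjusted p = 0.00124). In all 3 genes the lowest fat pad lay above the highest V gland, and the E+P glands overlapped V. Sc5d and Mvd, enzymes of cholesterol synthesis, and Srebf1, the factor SREBP-1 that drives many genes of this list, rose by 1.43 ± 0.31, 1.92 ± 0.44 and 0.69 ± 0.16; Mvd and Srebf1 were chosen after their values were seen. Mvd stood at 105, 85.9 and 92.5 in E+P CFP, at 56.8 to 96.7 in E+P and at 39.1, 41.6, 17.6 and 13.2 in V. Fasn, the fatty acid synthase itself, was among the brightest transcripts of fat and did not pass the threshold, at 11136, 10729 and 10889 in E+P CFP against 8276, 8442, 10134 and 9266 in V (0.28 ± 0.11, adjusted p = 0.24). Fasn and the other members Thrsp, a lipogenic regulator (0.50 ± 0.16, adjusted p = 0.0968), and Acly, which makes cytosolic acetyl-CoA (0.92 ± 0.34, adjusted p = 0.193), were chosen after their values were seen. Without V 4 and E+P CFP 1 together 2 members rose, and in the model with the muscle score 0 did. There the estimates were 0.90 for Scd2 (adjusted p = 0.32), 1.77 for Pnpla3 (0.16) and 1.20 for Mlxipl (0.31). Of the 6, Sc5d lost its call without E+P CFP 3 (adjusted p = 0.0635), Mvd without V 4 (0.0509), E+P CFP 1 (0.0849) or E+P CFP 3 (0.0524), and Srebf1 without V 2 (0.0689), V 4 (0.0509) or E+P CFP 1 (0.174). Another probe set had the opposite sign for Sc5d and for Mvd.

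Promoter sequences of the genes that rose in this list were read from RefSeq on build GRCm38.p6, to show which hold a motif known from lipid regulation. Entries matched 5 of the 6, all but Scd2. The letters searched, on both strands of the 250 bases before each start, were TCACNCCAC, a form of the sterol regulatory element, and the E-box CACGTG. The first was present in the window of 331 of 27025 genes (1.22%) and the second in 1854 (6.86%), a gene with several starts counting once. Of the 24 tested list members with an entry, 2 held the first and 6 the second. Matches are capital letters in the 3 windows that hold one, at chr5:135106641-135106890 and chr5:135089640-135089889 on the plus strand for 2 starts of Mlxipl and at chr9:42264301-42264550 on the minus strand for Sc5d, each written 5′ to 3′. The starts of Mlxipl are named in the order of their entries, and the second lies upstream of the first.
Mlxipl, first start: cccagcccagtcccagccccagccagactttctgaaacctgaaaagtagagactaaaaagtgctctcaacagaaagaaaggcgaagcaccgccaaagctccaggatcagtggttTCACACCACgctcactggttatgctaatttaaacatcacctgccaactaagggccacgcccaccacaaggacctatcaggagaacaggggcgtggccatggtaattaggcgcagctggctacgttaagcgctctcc
Mlxipl, second start: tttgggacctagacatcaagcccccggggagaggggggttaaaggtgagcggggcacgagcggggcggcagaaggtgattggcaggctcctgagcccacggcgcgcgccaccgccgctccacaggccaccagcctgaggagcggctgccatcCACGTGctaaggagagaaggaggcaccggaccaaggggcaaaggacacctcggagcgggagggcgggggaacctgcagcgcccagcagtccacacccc
Sc5d: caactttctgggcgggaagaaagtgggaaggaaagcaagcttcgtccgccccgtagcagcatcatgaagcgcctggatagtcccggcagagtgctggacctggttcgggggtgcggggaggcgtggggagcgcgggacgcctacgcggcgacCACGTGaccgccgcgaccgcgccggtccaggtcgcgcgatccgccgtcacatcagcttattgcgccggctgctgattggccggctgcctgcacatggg
The windows of Pnpla3, Mvd and Srebf1 held neither string of letters. A match describes the sequence only.

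White fat itself gave a smaller shift against V. Of 23 white adipocyte markers 3 rose, where 0.826% of all genes did, and 0 fell, with a median difference of 0.30. Their summed signal was 77170 to 84740 in E+P CFP and 53740 to 70040 in V. In 9 of the 23 every fat pad lay above every V gland, where 5.59% of all probe sets did, and in 0 below. Against the intact E+P glands 11 of the 23 were higher in the fat pads, where 3.54% of all genes were, and 0 were lower. Lep, the fat cell hormone leptin, read 964, 736 and 1405 in E+P CFP and 491, 597, 558 and 425 in V (0.96 ± 0.22, adjusted p = 0.0145). In the intact E+P glands it read 664 to 1068, also above every V gland, a difference of 0.70 from V that did not pass the threshold (adjusted p = 0.128). Slc2a4, the insulin-dependent glucose transporter, read 1213, 1408 and 983 in E+P CFP, against 619, 611, 707 and 353 in V (1.10 ± 0.29, adjusted p = 0.0365). Gpam, which starts triglyceride assembly, rose by 0.89 ± 0.22. No white adipocyte marker rose with the muscle score in the model, without V 4, or without V 4 and E+P CFP 1 together (0 of 23 in each). Slc2a4 is a glucose transporter of muscle as well as of fat, and which tissue its rise came from was not tested. The groups did not overlap for these 3 genes, but none of the 3 calls held against every leave-out: Lep lost it without V 4 (adjusted p = 0.0504) or E+P CFP 3 (0.111), Gpam without V 2, V 4, E+P CFP 1 or E+P CFP 3 (0.0524 to 0.161) and Slc2a4 without V 1, V 2, V 4, E+P CFP 1 or E+P CFP 2 (0.0575 to 0.154). Adipoq, the defining marker of fat cells, was near the top of the signal range in both tissues, at 12709, 11072 and 11752 in E+P CFP and 10043, 10096, 10362 and 8311 in V (0.29 ± 0.15, adjusted p = 0.418).

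Several further genes of fat and glucose handling stood out. Mid1ip1, which promotes the polymerisation of acetyl-CoA carboxylase, the enzyme that commits carbon to fatty acids, was chosen after its values were seen. It read 1218, 1039 and 1192 in E+P CFP, 327 to 596 in E+P and 296, 430, 371 and 275 in V, a difference of 1.76 ± 0.25 (adjusted p = 0.000119). With the muscle score in the model it was 1.77 (adjusted p = 0.0432). Adig, a small protein of fat cell differentiation also chosen in this way, read 1784, 2015 and 1386 in E+P CFP and 1100, 892, 832 and 739 in V (0.95 ± 0.17, adjusted p = 0.00142). Both separated the 3 fat pads from the V glands completely. Hk2, hexokinase 2, and Idh1, the cytosolic isocitrate dehydrogenase that supplies NADPH, rose by 1.08 and 0.78. With the muscle score in the model the calls of Adig, Hk2 and Idh1 were lost. Their estimates there were 0.98 (adjusted p = 0.145), 0.91 (0.60) and 0.44 (0.73). Hk2 lost its call without V 1, V 2, V 4, E+P CFP 1 or E+P CFP 2 (adjusted p of 0.0532 to 0.141) and Idh1 without E+P CFP 1 (0.0553) or E+P CFP 3 (0.0618). In the glycolysis and citric acid cycle list as a whole 3 of 34 rose, Hk2, Idh1 and the muscle enzyme Pgam2, and 2 fell, Aldoc among them. That is 14.7% called, against 4.11% of all genes. In 12 of the 34 every fat pad lay above every V gland, where 5.59% of all probe sets did, and in 2 below.

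**Figure D4:**
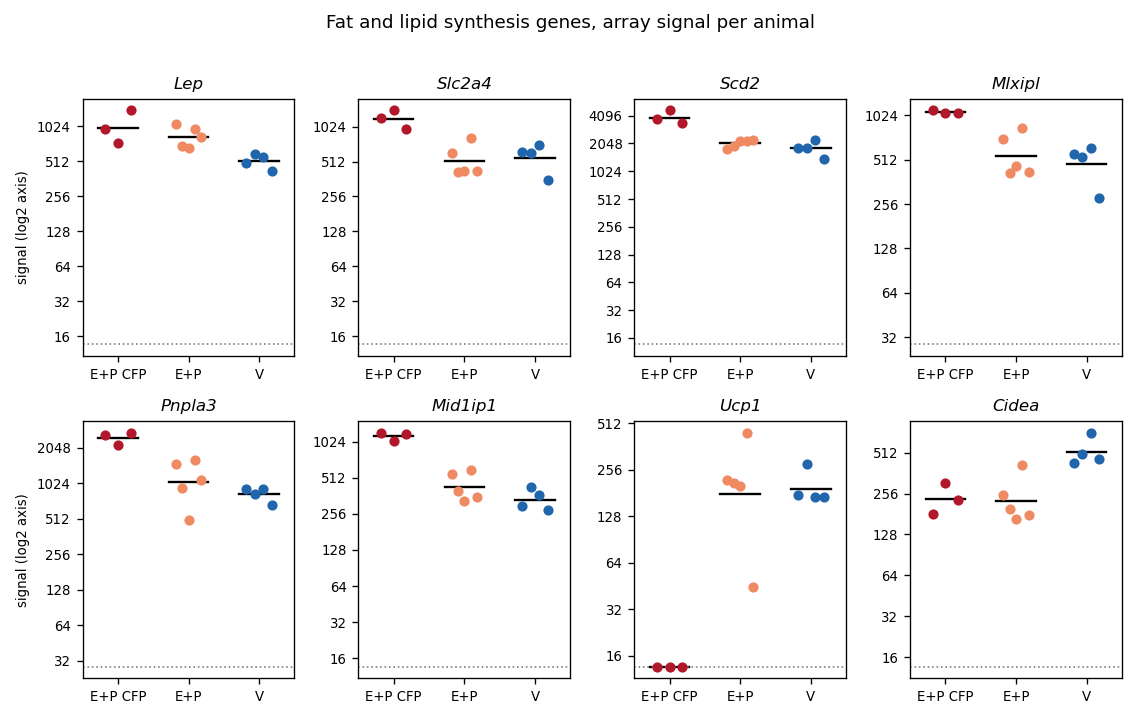
Array signal (log2 axis) of fat and lipid synthesis genes in each animal of E+P CFP, E+P and V; points are animals, black lines are means of log2 signals, and the dotted line is the floor. Mid1ip1 (1039 to 1218 in the fat pads, 275 to 430 in V), Pnpla3 and Mlxipl separate the fat pads from all V glands upward, and Ucp1 lies at the floor in all 3 fat pads.

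Of the brown fat and fatty acid oxidation lists 2 members each fell (28.6% and 9.52%, against 3.29% of all genes) and 0 rose. Ucp1, the uncoupling protein by which brown fat makes heat, read 9.7, 11.9 and 6.4 in E+P CFP, all under the floor, and 175, 279, 170 and 170 in V, at least 14.2-fold lower (adjusted p = 0.000119). Intact E+P glands read 44.7 to 446, those given progesterone alone 42.4 to 145, and those given estrogen alone 6.8 to 32.3, so that the fat pads and the estrogen glands were the lowest of the series. Cidea, a lipid droplet protein of brown and beige fat, read 181, 308 and 229 in E+P CFP, against 429, 496, 718 and 463 in V (-1.14 ± 0.28, adjusted p = 0.026). In E+P glands it read 166 to 418 and was also below V (-1.18, adjusted p = 0.0358), in a comparison that shares the V animals. The call for Cidea was lost without V 2, V 3, E+P CFP 1 or E+P CFP 3 (adjusted p of 0.0512 to 0.17). The brown adipocyte list had 7 tested members, of which these 2 fell, and its median was -0.01. Cpt1a, which carries long fatty acids into mitochondria, read 214, 248 and 305 in E+P CFP and 557, 601, 628 and 694 in V (-1.29 ± 0.19, adjusted p = 0.000181), and Acot1, an acyl-CoA thioesterase, fell by 2.54 ± 0.29. The other 19 of 21 fatty acid oxidation genes did not pass the threshold, and neither did any of 55 oxidative phosphorylation genes, whose median difference was 0.22. In 15 of the 55 every fat pad lay above every V gland, where 5.59% of all probe sets did, and in 1 below. The median of the fatty acid oxidation list was 0.08, with 5 of 21 genes above V without overlap and 2 below. The oxidative phosphorylation members with the smallest p, Ndufc1 and Ndufa3, subunits of complex I, differed by 0.48 and 0.36, and another probe set of Ndufc1 had the opposite sign.

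No gene of the stromal matrix lists rose, and the share that fell differed between lists. Of 20 collagens 0 rose and 2 fell (10%, against 3.29% of all genes), with a median of -0.03. Col1a1, the main fibrillar collagen, read 1745, 1887 and 2723 in E+P CFP and 1900, 3203, 4158 and 1922 in V (-0.35 ± 0.37, adjusted p = 0.762), and Col3a1 differed by 0.06 ± 0.30 (adjusted p = 0.962), with 1 of its 3 probe sets opposite in sign. The groups overlapped for both. Those that fell were Col7a1, the anchoring fibril under epithelia (113, 54.7 and 88.3 in E+P CFP, 208, 184, 149 and 254 in V, -1.26 ± 0.27), and Col8a1, a short-chain collagen of vessels (-1.22 ± 0.28). Col7a1 lost its call without E+P CFP 2 (adjusted p = 0.0847), and Col8a1 without V 1 (0.0601) or E+P CFP 2 (0.0847). None of 18 genes for collagen processing and crosslinking passed (median -0.02), where Lox, the crosslinking oxidase, was nearest at -1.40 ± 0.54 (adjusted p = 0.213, with another probe set opposite in sign), followed by P3h2, a prolyl hydroxylase (adjusted p = 0.324). Dcn and Lum, the abundant proteoglycans of fibroblasts, chosen after their values were seen, differed by -0.17 ± 0.16 and 0.52 ± 0.24.

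Of 23 proteoglycan genes 2 fell (8.70%), Sdc4, a syndecan (111, 141 and 128 in E+P CFP, 367, 326, 275 and 339 in V, adjusted p = 0.00101), and the glypican Gpc6 (-1.83), whose call was lost without E+P CFP 1 (adjusted p = 0.0984). Among 16 laminin and basement membrane genes 3 fell (18.8%): Egflam, also called pikachurin (381, 301 and 309 in E+P CFP, 770, 564, 621 and 557 in V, -0.92 ± 0.18, adjusted p = 0.00337), Agrn, agrin (-0.98 ± 0.19, adjusted p = 0.00299, with 1 of 3 probe sets opposite in sign), and Lama5, the laminin chain of epithelial and vessel basement membranes (-1.10 ± 0.27, adjusted p = 0.0233). Lama5 lost its call without V 3, V 4, E+P CFP 2 or E+P CFP 3 (0.069 to 0.0994). Fbln1, fibulin 1, was the only one of 27 elastic fibre and matricellular genes (3.70%) past the threshold (-0.91 ± 0.21, adjusted p = 0.0158), and was not without V 1, V 2 or E+P CFP 3 (0.0553 to 0.0977). In the metalloproteinase list 2 of 21 fell (9.52%, against 3.29% of all genes), the inhibitor Reck (-0.92) and the sheddase Adam10 (-0.77). Reck lost its call without V 4 (adjusted p = 0.0572) or E+P CFP 2 (0.101) and Adam10 without V 1, V 3, V 4, E+P CFP 1 or E+P CFP 2 (0.0591 to 0.147).

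Fibroblast and endothelial lists had shares of calls near that of all genes (4% each, against 4.11%), while smooth muscle (20%) and nerve (41.7%) lists had higher shares. Of 25 fibroblast and fat progenitor genes 0 rose and 1 fell, with a median difference of 0.24. It was Gas1, a surface co-receptor of Hedgehog, which read 126, 148 and 123 in E+P CFP and 465, 438, 451 and 297 in V (-1.62 ± 0.23, adjusted p = 0.000144). Pdgfra, the fibroblast receptor of platelet-derived growth factor, read 337, 436 and 454 in E+P CFP and 408, 372, 265 and 217 in V (0.41 ± 0.24, adjusted p = 0.482). In the endothelium list, 1 of 25 fell and the median was 0.09. The gene was Rbp7, a retinol-binding protein of capillaries and fat, with 583, 422 and 635 in E+P CFP and 1457, 1258, 1196 and 1075 in V (-1.20 ± 0.25, adjusted p = 0.00633). The intact E+P glands were lower still, at 150 to 370, and the fat pads lay 1.11 above them (adjusted p = 0.0043), so the order from low to high was E+P, E+P CFP and V without overlap. Without E+P CFP 2 the Rbp7 call against V was lost (adjusted p = 0.0541). Itga8, an integrin of contractile stroma, made up the third fall of 15 smooth muscle and pericyte genes beside Acta2 and Cnn1 (-0.94 ± 0.24), and lost it without V 1, V 2, V 4, E+P CFP 1 or E+P CFP 2 (0.0587 to 0.217). Of 12 nerve genes 3 fell, with Erbb3 and Sox10 among them, and 2 rose, Egr2 and the myelin gene Pmp22 (0.89 ± 0.23). Sox10 is also in the basal epithelium list and Egr2 in the early response list, so the nerve share is not specific to nerve. With single animals left out, 0 to 2 nerve genes rose and 2 or 3 fell (0 rose and 2 fell without V 4), and with the muscle score in the model 0 rose and 1 fell. Every single leave-out except that of V 3 ended the call for Pmp22 (adjusted p of 0.0506 to 0.126).

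Among the rises named here, 3 kept their call with the muscle score in the model: Mid1ip1, Chsy1 and Naaa, all chosen after their values were seen. Chsy1, which builds the chains of chondroitin sulfate, read 699, 629 and 635 in E+P CFP and 197, 278, 378 and 268 in V (1.26 ± 0.20, adjusted p = 0.000289, and 0.044 with the muscle score). Naaa, a lysosomal amidase that breaks down fatty acid ethanolamides, averaged 910 ± 41.5 in E+P CFP (SD, n = 3) and 485 ± 35.8 in V (SD, n = 4), a difference of 0.91 ± 0.13 (adjusted p = 0.000101, and 0.0341 with the muscle score). In both genes the fat pads lay close together and apart from all V and E+P glands. Igfbp6, which binds insulin-like growth factor 2, read 887, 941 and 776 in E+P CFP and 249, 511, 360 and 277 in V (1.36 ± 0.26, adjusted p = 0.00299); with the muscle score the estimate was 0.72 (adjusted p = 0.65). Cpxm1, a secreted carboxypeptidase-like protein, Enpep, the aminopeptidase that converts angiotensin II, and Ccnd2, cyclin D2, all chosen after their values were seen, rose by 1.31 ± 0.22, 1.47 ± 0.35 and 1.85 ± 0.40. Enpep lost its call without V 4, E+P CFP 2 or E+P CFP 3 (adjusted p of 0.0594 to 0.0954), as did Ccnd2 without E+P CFP 2 (0.0785), and 1 of the 2 probe sets of Enpep had the opposite sign.

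Signals that pass between stroma and epithelium were measured in a list of 31 growth factors, of which 2 rose and 7 fell. That is 29.0% called, against 4.11% of all genes. Ptn, pleiotrophin, lay under the floor in all fat pads (4.9, 1.3 and 6.2) and read 150, 89.8, 158 and 148 in V, at least 9.81-fold lower (adjusted p = 3e-06). Tgfb3 read 122, 102 and 107 in E+P CFP and 372, 322, 318 and 268 in V (-1.53 ± 0.17, adjusted p = 4.2e-06). Inhbb, the activin B subunit, read 6.3, 25.7 and 37 in E+P CFP and 202, 184, 138 and 129 in V (-2.77 ± 0.33, adjusted p = 9.38e-06), and the neurotrophic factor Nrtn fell by 0.90. The fat pads lay below every V gland in all 4. Agt, angiotensinogen, which fat secretes, read 347, 283 and 161 in E+P CFP and 110, 101, 31.7 and 20.5 in V (2.27 ± 0.60, adjusted p = 0.0392). Fgf10, made by mammary stroma and fat progenitors and chosen after its values were seen, read 1946, 1638 and 3258 in E+P CFP, 475 to 867 in E+P and 1022, 1284, 706 and 861 in V (1.21 ± 0.31, adjusted p = 0.0286). Agt lost its call without V 3, V 4, E+P CFP 1 or E+P CFP 2 (adjusted p of 0.109 to 0.186) and Fgf10 without V 1, V 3, V 4, E+P CFP 1 or E+P CFP 3 (0.0526 to 0.175). Stc2, stanniocalcin 2, was the fall among 17 genes of the insulin-like growth factor axis (-1.58 ± 0.34, adjusted p = 0.00891, and 0.0556 without E+P CFP 3). Igf1 itself read 317, 319 and 274 in E+P CFP and 453, 424, 385 and 474 in V, without overlap, and did not pass the threshold (-0.52 ± 0.15, adjusted p = 0.0729); 2 of its 4 probe sets had the opposite sign.

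In developmental pathways, 3 of 32 TGF-beta and BMP genes fell (9.38%, against 3.29% of all genes). They were Tgif1, a corepressor (-1.31 ± 0.24), and Id4 (-1.07 ± 0.25) and Id2 (-0.76 ± 0.19), which block helix-loop-helix factors. In the Wnt, Notch and Hedgehog, homeobox and axon guidance lists the shares that fell were 3.23% to 4%, near that of all genes. Of 31 Wnt genes 1 fell, the receptor Fzd7, with 48.4, 64.2 and 95.6 in E+P CFP against 263, 209, 181 and 124 in V (-1.49 ± 0.28, adjusted p = 0.00187). In the Notch and Hedgehog list 1 of 28 fell, Gas1, and in the list of homeobox and patterning factors 1 of 25, Irx3. The guidance cue Ntn1 fell by 0.73 as 1 of 30 axon guidance genes, though it lost its call in each of the 7 leave-outs (adjusted p of 0.0504 to 0.135). Id4 lost its call without E+P CFP 3 (0.0778) and Id2 without V 2, V 3, V 4, E+P CFP 1 or E+P CFP 2 (0.0535 to 0.168).

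Estrogen and progesterone receptors and their targets showed no rise in the fat pads at the threshold. Of 18 steroid and related receptors 0 passed. Esr1, estrogen receptor alpha, read 394, 411 and 667 in E+P CFP and 912, 874, 958 and 553 in V (-0.76 ± 0.22, adjusted p = 0.0625), and the nuclear receptor Nr2f2 differed by 0.52, with another probe set opposite in sign. The ranges of Esr1 overlapped through V 4 and the highest fat pad. The Pgr probe set, for the progesterone receptor, did not pass the filter and read 1.7 to 4.3 in E+P CFP and 0.9 to 23.7 in V. Of 25 estrogen targets 0 rose and 3 fell (12%, against 3.29% of all genes). They were Ltf, the factor Myb (9.1, 14.4 and 31.6 in E+P CFP, 174, 146, 175 and 210 in V) and cyclin D1, Ccnd1 (117, 146 and 126 in E+P CFP, 275, 240, 268 and 390 in V). Greb1, a target of the estrogen receptor whose values were looked up after the others were seen, was too dim to be tested and read 107, 67.4 and 81 in E+P CFP, against 42.8, 51.8, 17.5 and 60 in V. Of 26 progestin and glucocorticoid targets 0 rose and 2 fell (7.69%), Lcn2 and Id4. Fkbp5 and Zbtb16, which both receptors induce in many tissues, differed by 0.43 ± 0.33 and 0.64 ± 0.39 (adjusted p = 0.629 and 0.515). In the steroid metabolism list 0 of 15 passed, and Hsd17b7, which also acts in cholesterol synthesis, was nearest at 1.19 ± 0.37 (adjusted p = 0.0895), with Hsd17b10 at 0.42.

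Proliferation genes did not rise in the hormone-treated fat pads. Of 35 DNA replication and mitosis genes 0 passed the threshold against V, with a median difference of -0.19, while in the intact E+P glands 12 rose, where 0.343% of all genes did, with a median of 1.02. Mki67, which marks cycling cells, read 30.8, 15 and 48 in E+P CFP, 102 to 410 in E+P and 34.4, 57.6, 35.8 and 58.4 in V. Its difference from V was -0.68 ± 0.44 (adjusted p = 0.545), and its difference between the fat pads and the E+P glands was -2.74 (adjusted p = 0.0002). Set directly against the E+P glands, 23 of the 35 genes fell in the fat pads, where 6.91% of all genes did. The members nearest the threshold against V were Lig1, a DNA ligase (-1.44, adjusted p = 0.126), and Plk1, a mitotic kinase (-1.25, adjusted p = 0.196, with another probe set opposite in sign). Birc5, survivin, chosen after its values were seen, read 40.3, 30.3 and 30.7 in E+P CFP and 16.2 to 24.5 in V and differed by 0.68 ± 0.39 (adjusted p = 0.468).

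**Figure D5:**
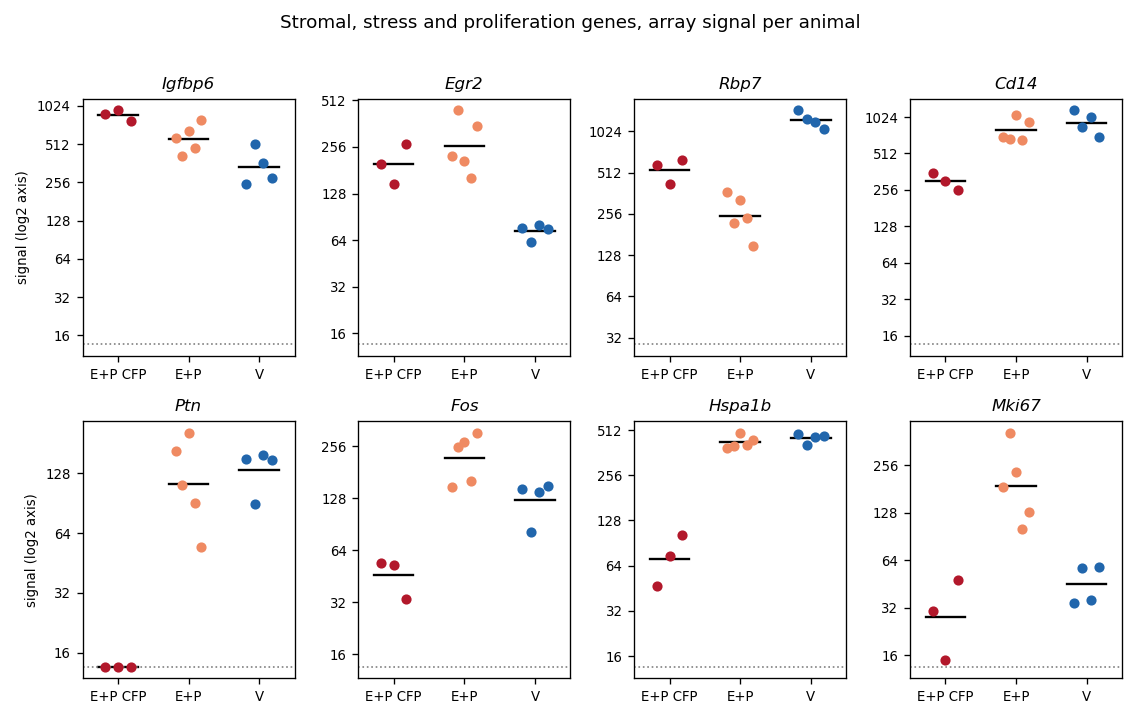
Array signal (log2 axis) of stromal, immune, stress and proliferation genes in each animal of E+P CFP, E+P and V; points are animals, black lines are means of log2 signals, and the dotted line is the floor. Igfbp6 and Egr2 lie above V in the fat pads, Cd14, Ptn, Fos and Hspa1b below it, Rbp7 between E+P and V, and Mki67 (15 to 48 in the fat pads) is highest in E+P.

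Early response and stress genes differed in both directions. Egr2, a zinc finger factor induced early after stimulation, read 198, 147 and 266 in E+P CFP, 162 to 440 in E+P and 77.1, 62.7, 80.5 and 75.6 in V. It rose by 1.43 ± 0.35 in the fat pads (adjusted p = 0.027) and by 1.81 in the E+P glands (adjusted p = 0.00924), in comparisons with the same V animals. Fos, the partner of Jun, fell to 54.4, 52.6 and 33.7 in E+P CFP, against 145, 81.5, 140 and 150 in V (-1.45 ± 0.32, adjusted p = 0.0113), whereas E+P glands read 150 to 307. The heat shock genes Hspa1b and Hspa1a, which encode near-identical proteins and whose probe sets may share signal, read 46.8 to 103 and 72 to 84 in E+P CFP and 407 to 481 and 164 to 192 in V (-2.68 ± 0.23 and -1.13 ± 0.23), and the small heat shock gene Hspb8 rose by 1.00 ± 0.19. In all, 2 of 34 genes of this list rose and 3 fell (14.7% called, against 4.11% of all genes). Egr2 lost its call without V 1, V 2, V 4, E+P CFP 1 or E+P CFP 3 (adjusted p of 0.0524 to 0.132) and Fos without E+P CFP 3 (0.0748). Of 20 p53 targets 3 passed the threshold (15%, against 4.11% of all genes). Perp and the kinase Plk2 (407, 359 and 368 in E+P CFP, 1158, 1196, 1060 and 1540 in V, -1.70 ± 0.19) fell. Phlda3 rose (1.01 ± 0.23, lost without E+P CFP 1 with adjusted p = 0.113 or E+P CFP 2 with 0.0583).

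Among the immune lists, those of macrophages (8%) and of chemokines and cytokines (10%) held calls, against 4.11% of all genes. Of 25 macrophage and dendritic cell genes 1 fell, Cd14, a receptor for bacterial lipopolysaccharide, with 353, 306 and 255 in E+P CFP against 1159, 848, 1029 and 699 in V (-1.60 ± 0.19, adjusted p = 8.18e-06), and 1 rose, the macrophage lectin Clec10a (0.74 ± 0.20, adjusted p = 0.0468). The Clec10a call was lost in every leave-out but that of V 2 (adjusted p of 0.0682 to 0.189). Of 20 chemokines and cytokines 2 fell, Cx3cl1, a chemokine held at the cell surface (95.5, 70.9 and 89.5 in E+P CFP, 237, 267, 229 and 274 in V, adjusted p = 4.61e-07), and Il33, an alarmin (-1.33 ± 0.32, lost without V 2, V 3, E+P CFP 1 or E+P CFP 2, 0.0548 to 0.0962). None of 27 lymphocyte and plasma cell genes passed, and their median difference was 1.14. Glycam1, given above, differed by 4.49 (adjusted p = 0.214), and Jchain, the joining chain of antibodies, differed by 1.59 ± 0.66 (adjusted p = 0.265). None of 33 interferon genes passed (median 0.02, with Ifi27 at 0.57 and Rsad2 at 0.77), nor did any of 10 mast cell and granulocyte genes (Tpsb2 at -0.77, with another probe set opposite in sign, and Csf3r at -0.97) or of 6 erythroid genes (Hba-a1 at 0.46, Gata1 at -0.38). Of 11 epidermis genes 1 fell (9.09%), Cdsn, corneodesmosin, by 1.24.

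The remaining lists each held from 1 to 4 calls. Their shares of called genes ran from 2.63% (endoplasmic reticulum) to 10% (clock genes), against 4.11% of all genes. Glutathione and xenobiotic metabolism had 41 tested members, of which 3 fell and 1 rose. In 10 of the 41 every fat pad lay above every V gland, where 5.59% of all probe sets did, and in 3 below. Gclc, which makes the rate-limiting subunit of glutathione synthesis, read 57.9, 73.3 and 60.5 in E+P CFP and 243, 155, 208 and 316 in V (-1.81 ± 0.31, adjusted p = 0.000952), and the transferase Gstt3 and the reductase Gsr fell by 2.12 and 0.62. Gsta3 rose by 1.04, and lost its call without V 2, V 4, E+P CFP 2 or E+P CFP 3 (adjusted p of 0.053 to 0.119). Aldh1a1, which makes retinoic acid, was the rise among 16 retinoid genes (361, 417 and 352 in E+P CFP, 178, 207, 230 and 90.6 in V, 1.17 ± 0.26, adjusted p = 0.0128, and 0.064 without E+P CFP 2), with 1 of its 2 probe sets opposite in sign. Of 32 proteasome genes 1 rose, Psmb7 (0.54 ± 0.11). In 11 of the 32 every fat pad lay above every V gland, where 5.59% of all probe sets did, and in 0 below. Of 31 cytosolic ribosomal protein genes 1 fell, Rpl6 (-0.52 ± 0.12), lost without V 4 (0.0582) or E+P CFP 1 (0.108), and 13 of the 31 lay without overlap below V, where 7.38% of all probe sets did. In the endoplasmic reticulum list 1 of 38 fell, Copb2 (-0.59), lost without E+P CFP 1 (0.0515) or E+P CFP 3 (0.0995). Of 26 solute carriers and water channels 2 fell, Slc12a2 and the transferrin receptor Tfrc (-0.86), which lost its call without E+P CFP 1 (0.0564) or E+P CFP 3 (0.0607). Of 30 complement and coagulation genes F7 fell by 0.62 and thrombomodulin, Thbd, rose by 0.90, and of 20 clock genes Noct and Bhlhe41 fell by 0.82 and 0.74. F7 lost its call in every leave-out but that of E+P CFP 3, Thbd in every one but that of V 2, Noct in every one but those of V 4 and E+P CFP 3, and Bhlhe41 in every one but those of V 1 and E+P CFP 1 (adjusted p of 0.0511 to 0.245). Another probe set of Copb2, of Tfrc and of Noct had the opposite sign. Miat, a long noncoding RNA chosen after its values were seen, read 158, 203 and 125 in E+P CFP, 118 to 155 in E+P and 47.5, 76.5, 55.3 and 69.9 in V (1.38 ± 0.33, adjusted p = 0.0178), and lost its call without V 1, E+P CFP 1 or E+P CFP 2 (0.0626 to 0.106).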

How the data were processed

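Mammary tissue in 5 groups, taken as 20 separate animals as the design text counts them, was hybridised to 3 Affymetrix array types, giving 60 arrays. The deposited values are signal intensities. MAS5 is the tool that the submitters' processing notes name for them, with no version. Of 36899 probe sets 198 controls were left out, and 29131 carried 1 gene symbol in the platform annotation. Each array was scaled to the common trimmed mean of its type (2% off each end), values under the 25th percentile were set to it, and probe sets above the 50th percentile in at least 3 animals were tested on log2 values. The fit was limma 3.58.1 in R 4.3.3, with 5 group means, an intensity trend and Benjamini-Hochberg adjustment over 23067 probe sets at 0.05. Each gene stands for 1 probe set, taken from type A before B before C, without a special suffix, then by the highest mean. A fold is "at least" where every animal of a group lay under the floor.

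Genes were named as the 15 largest rises and falls whose groups did not overlap, up to 4 called members of each of 50 lists or 2 members where none was called, and a fixed set; others are said to be chosen after their values were seen. The members and lists were chosen with earlier results of these data known. The fit was tested on simulated data: of 100 probe sets each, changes of 1, -1, 2 and -2 on the log2 scale were recovered in 42%, 35%, 84% and 64%. The number of arrays limits the precision.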

Additional observations from a re-analysis of the deposited data

Results flagged for a closer look

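Single animals stood apart from the rest of their group in 24 of 326 group and quantity pairs, by Dixon's test at 95%, and chance alone flags about 1 in 20. Values are log2 signals unless stated. In V 4 they were the lymphocyte and plasma cell score (1.39), Glycam1 (10.8), Pygm (3.91), Gas1 (8.22), Esr1 (9.11), Reck (7.47), P3h2 (4.84), Hsd17b10 (8.06) and Adipoq (13.02). In V 2 they were Ucp1 (8.13), Ptn (6.49), Fos (6.35) and Fgfr2 (9.48), and in V 3 Klhl41 (4.85). Among the intact E+P glands, E+P 5 stood apart in Tnnt3 (6.06), Ryr1 (5.13), Tnni2 (4.07), Tnnc2 (6.63), Klhl41 (5.06) and Reck (6.32), E+P 4 in Trdn (4.84), and E+P 2 in Gpam (9.27), P3h2 (5.65) and Inhbb (6.32). For Pygm, Tnni2, Tnnt3, Klhl41 and Glycam1 the other animals of the group lay at or near the floor. The fat pads, with 3 animals, were not examined in this way.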

How the results depend on the processing

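Of 713 probe sets past the threshold (158 higher, 555 lower), 419 (92 higher, 327 lower) passed when only E+P CFP and V animals were fitted, 180 (8 higher, 172 lower) with the skeletal muscle score in the model, and 393 (42 higher, 351 lower) without V 4 and E+P CFP 1 together. Leaving out 1 animal gave 467 to 629 in all, 67 to 150 higher and 400 to 520 lower, lowest each time without E+P CFP 1. Median scaling turned the share of higher calls to 32.4% (203 higher, 423 lower), against 22.2%. The replicate block gave 654 (141 higher, 513 lower), but deviations of same-numbered animals correlated at -0.139 to 0.124, so the numbers do not pair the animals. Of 125 named genes past the threshold 78 kept it in every single leave-out in which they were tested. Each leave-out of a fat pad tested 123 of the 125. Pgam2 and Klhl41 failed the filter there and are counted among the 78 by the V leave-outs alone. With the muscle score Tnnt3 was at -0.14, Myom2 at -0.13, Tnnc2 at -0.016 and Col3a1 at -0.44. Tnnt3 and Tnnc2 are themselves part of that score. By the probe set with the highest mean Klhl41 was at -0.11, Agrn at 0.10, Nr2f2 at -0.38, Noct at 0.16, Epcam at 0.35 and Mvd at -0.11. Col3a1 was at -0.069 after quantile normalization and at -0.22 to 0.23 over the single leave-outs, below 0 without V 1, V 4 or E+P CFP 3. The causes were not tested. Signals near the floor limit what can be said of dim genes.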
